A study of Mus musculus with 21 samples.

Results

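Expression of 57 mitosis and kinetochore genes was examined in inflammatory monocytes (IMs) of mice with and without lung squamous tumors. The 57 genes were taken as a list of symbols for mitotic cyclins, kinases, checkpoint proteins, kinetochore subunits, motors and chromosome proteins, and all 57 were found among the 23420 gene symbols of the count table. All 57 passed the filter on low counts in each comparison. RNA was sequenced from 21 sorted samples in 5 groups. Tumor-infiltrating IMs (TIMs) came from lung primary tumors (n = 5) and lymph node metastases (n = 5) of FVB mice that received the metastatic cell line KAL-LN2-E1 (LN2E1) in the lung, and from lungs of DBA2 mice with tumors after intravenous LN4K1 cells (n = 5). Bone marrow IMs (BM IMs) came from naive FVB mice (n = 3) and naive DBA2 mice (n = 3). The study's methods give adult mice, and no age is given for single samples. Each tumor line was derived by passaging, so each model rests on 1 cell line. No marrow of tumor-bearing mice and no lung of naive mice was analysed here, so tumor, tissue and the digestion of solid tissue cannot be told apart in any comparison of TIMs with BM IMs.

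A dividing cell condenses its chromosomes, builds a spindle, attaches each chromosome to it through the kinetochore, waits at a checkpoint until attachment is complete, and then separates the chromosomes and splits. Cyclin-dependent kinase 1 with B-type cyclins starts this program, the Plk1 and Aurora kinases drive its steps, and the anaphase-promoting complex ends it by destroying cyclin B and securin. Most of these genes are transcribed late in the cell cycle and are nearly silent in resting cells. Monocytes arise in marrow from dividing precursors and mostly leave the cycle as they enter blood and tissue.

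Many promoters of late cell cycle genes carry a cell cycle genes homology region (CHR), the letters TTTGAA, near the transcription start, and CCAAT boxes, the site of the factor NF-Y, upstream of it. The promoters of 6 members are shown because they hold the range of these patterns and of the measured falls. Ccnb2 and Cdk1 form the mitotic kinase, Top2a had one of the largest falls in LN4K1 lungs, Hmmr was nearly absent from lymph node TIMs, and Pttg1 and Cks2 had the smallest falls in 2 of the 3 TIM groups. The sequences are RefSeq windows of GRCm38.p6, read along each gene, from 250 bases before the transcription start to 50 bases after it. Capitals mark TTTGAA or its reverse complement, and CCAAT or its reverse complement. The windows lie at chr9:70421505-70421804 (Ccnb2, reverse strand), chr10:69352863-69353162 (Cdk1, reverse), chr11:99024140-99024439 (Top2a, reverse), chr11:40733388-40733687 (Hmmr, reverse), chr11:43425932-43426231 (Pttg1, reverse) and chr13:51644982-51645281 (Cks2, forward).
Ccnb2: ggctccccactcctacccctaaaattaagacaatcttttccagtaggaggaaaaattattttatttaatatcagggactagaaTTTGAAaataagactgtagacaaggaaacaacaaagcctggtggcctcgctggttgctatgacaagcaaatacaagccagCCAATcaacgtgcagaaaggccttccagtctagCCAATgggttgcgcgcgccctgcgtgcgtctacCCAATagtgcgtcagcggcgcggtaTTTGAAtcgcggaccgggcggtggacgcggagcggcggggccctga
Cdk1: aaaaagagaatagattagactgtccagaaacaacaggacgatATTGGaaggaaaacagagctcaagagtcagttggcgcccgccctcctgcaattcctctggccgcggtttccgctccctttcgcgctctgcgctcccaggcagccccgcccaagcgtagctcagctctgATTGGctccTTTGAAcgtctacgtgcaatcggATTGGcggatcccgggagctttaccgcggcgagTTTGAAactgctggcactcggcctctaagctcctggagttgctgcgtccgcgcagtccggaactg
Top2a: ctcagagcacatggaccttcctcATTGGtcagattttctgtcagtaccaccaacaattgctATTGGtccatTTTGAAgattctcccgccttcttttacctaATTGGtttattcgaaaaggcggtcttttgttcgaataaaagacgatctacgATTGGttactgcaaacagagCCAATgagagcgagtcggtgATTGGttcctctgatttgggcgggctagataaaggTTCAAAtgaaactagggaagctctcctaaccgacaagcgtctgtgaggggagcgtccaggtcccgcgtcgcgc
Hmmr: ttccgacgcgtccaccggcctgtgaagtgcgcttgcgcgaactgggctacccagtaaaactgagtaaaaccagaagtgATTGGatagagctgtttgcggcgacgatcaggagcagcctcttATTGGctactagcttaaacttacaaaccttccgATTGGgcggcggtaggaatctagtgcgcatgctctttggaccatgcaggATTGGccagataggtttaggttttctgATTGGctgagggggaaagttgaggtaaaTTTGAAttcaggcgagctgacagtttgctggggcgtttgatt
Pttg1: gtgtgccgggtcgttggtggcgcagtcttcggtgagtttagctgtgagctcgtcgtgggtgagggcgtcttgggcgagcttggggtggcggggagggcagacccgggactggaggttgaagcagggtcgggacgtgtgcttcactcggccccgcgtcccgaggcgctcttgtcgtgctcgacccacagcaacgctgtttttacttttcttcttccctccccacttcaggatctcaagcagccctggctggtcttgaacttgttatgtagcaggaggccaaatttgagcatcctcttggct
Cks2: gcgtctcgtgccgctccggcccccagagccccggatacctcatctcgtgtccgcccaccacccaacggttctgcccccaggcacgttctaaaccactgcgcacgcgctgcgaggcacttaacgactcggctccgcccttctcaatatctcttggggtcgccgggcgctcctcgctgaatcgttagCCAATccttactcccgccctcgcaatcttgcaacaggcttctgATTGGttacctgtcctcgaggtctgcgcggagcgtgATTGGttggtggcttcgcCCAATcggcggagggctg
The Ccnb2 window holds 2 copies of TTTGAA and 3 CCAAT boxes, the Cdk1 window 2 and 3, the Top2a window 2 and 6, and the Hmmr window 1 and 5. The Cks2 window holds 4 CCAAT boxes and no TTTGAA, and the Pttg1 window holds neither. In GENCODE vM21 the Pttg1 gene extends further upstream, to position 43426251, so its whole window lies inside the gene as annotated there, and another start of Pttg1 was not searched.

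Over the whole list, 45 members had at least 1 window in the RefSeq table and 12 had none. On either strand, TTTGAA was present in 67.3% of the 49 member windows, in 12.2% of the 13939 windows of other genes tested in any comparison, and in 17.9% of the 32851 windows of the table. CCAAT was present in 77.6% of member windows and 37.3% of the other windows, and at least 2 copies in 53.1% and 13.1%. Windows with both motifs made up 59.2% of member windows and 4.69% of the others. A window could count for several motifs, and motifs that shared bases were each counted. The related letters TTTAAA stood in 18.4% and 9.41%, and the TATA box letters TATAAA in 4.08% and 8.12%. The motifs were not spread evenly over the windows. In the first 50 bases from the start onward, 38.8% of member windows and 1.31% of the others held TTTGAA, and in the 50 bases before the start 22.4% and 1.56% did. CCAAT was most frequent just upstream, in 46.9% of member windows against 10.4% at 1 to 50 bases before the start, and in 44.9% against 14.5% at 51 to 100 bases before it. These matches describe letters, and no binding was measured.

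**Figure D1:**
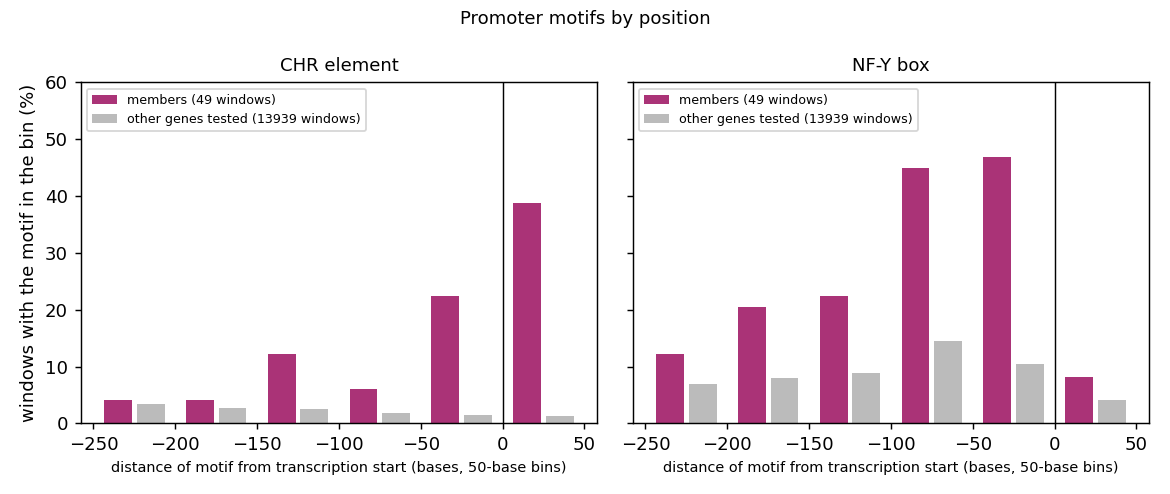
Share of promoter windows (y axis, %) that hold the CHR letters (left) or a CCAAT box, the NF-Y box (right), in each bin of 50 bases by distance from the transcription start (x axis, bases), for 49 member windows and 13939 windows of other genes tested. CHR letters peak in the bin from the start onward (38.8% of member windows) and CCAAT boxes in the bins just upstream (46.9% and 44.9%).

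Total counts per library lay between 80772922 and 101043568, so depth was alike. Of 10 monocyte and sort genes, 8 were in the table, and Ly6g and Siglecf were not analysed here. Ly6c2, a gene of the Ly6C sort antigen, had 2455 to 3618 CPM in FVB and 2525 to 2724 in DBA2 BM IMs, and 1109 to 1391, 978 to 1676 and 1208 to 1672 in primary tumor, lymph node and LN4K1 lung TIMs. These genes do not separate monocytes from related myeloid cells. Lymph node replicate 1 and LN4K1 lung replicate 3 stood apart from their groups, with 48.7% and 43.5% of all symbols at 0 counts, and results are given without them where that matters. Fibroblast markers summed to 380 to 1132 CPM in primary tumor TIMs, 12.2 to 107 in lymph node TIMs, 1.81 to 42.7 in LN4K1 lung TIMs, and 5.25 to 9.24 and 0.0896 to 1.40 in FVB and DBA2 BM IMs. Epithelial markers, which tumor cells can carry, summed to 66.5 to 119, 11.0 to 140 and 1.57 to 172 CPM in the 3 TIM groups in that order and at most 2.51 in BM IMs. Macrophage markers summed to 2006 to 2260 CPM in FVB and 1484 to 2823 in DBA2 BM IMs, against 3930 to 5218, 3733 to 5665 and 5584 to 7288 in the TIM groups. The part of these cells in the results was not tested. CPM are counts scaled to a common library total with TMM factors, which correct for differing composition between libraries.

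The summed level of the 57 genes was far lower in TIMs than in BM IMs. It was 7007, 7108 and 6113 CPM in the FVB BM IM libraries and 6746, 7405 and 7147 CPM in the DBA2 BM IM libraries. In TIMs it was 442, 645, 332, 579 and 543 CPM in primary tumors, 366, 360, 318, 339 and 319 CPM in lymph nodes, and 350, 415, 391, 400 and 425 CPM in LN4K1 lungs. No TIM library overlapped with a BM IM library, and the lowest FVB library was 9.47 times the highest primary tumor library. By group, FVB BM IMs held 6743 ± 548 CPM (SD, n = 3) and DBA2 BM IMs 7099 ± 332 (n = 3). Primary tumor TIMs held 508 ± 123 CPM (n = 5), lymph node TIMs 340 ± 22.2 (n = 5) and LN4K1 lung TIMs 396 ± 29.2 (n = 5), so the BM means were 13.3, 19.8 and 17.9 times those of the matching TIMs. In these bulk samples, fewer dividing cells and less of this RNA per dividing cell cannot be told apart.

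Markers of myeloid progenitors fell in the same direction. Their 11 genes summed to 2214 to 2576 CPM in FVB and 2414 to 2770 in DBA2 BM IMs, against 86.1 to 96.5 in primary tumor, 47.9 to 165 in lymph node and 127 to 300 in LN4K1 lung TIMs. The median log2 fold changes of the list were −4.57, −4.11 and −3.03. Mpo, the granule peroxidase of immature myeloid cells, had 1379 ± 153 CPM (SD, n = 3) in FVB BM IMs and 2.35 ± 2.16 (n = 5) in primary tumor TIMs. Its log2 change in primary tumors minus that in LN4K1 lungs was −4.20 ± 0.85 (SE; edgeR adjusted p = 0.00280), a smaller fall in LN4K1 lungs. By this difference 5 of the 11 genes were negative and 1 positive at an adjusted p under 0.05, against 13.3% and 13.2% of all genes. By edgeR at an adjusted p under 0.05, 8, 7 and 8 of the 11 progenitor genes were lower in primary tumor, lymph node and LN4K1 lung TIMs, against 28.6%, 17.2% and 11.0% of all genes tested. Of the list, 1 gene, Flt3, was higher in each, against 33.3%, 20.2% and 13.9% of all genes. No gene of that list was at or under 3 counts in a whole group, while the 4 globin genes of the red cell list were at or under 3 counts in all 5 groups. The part of progenitor cells in the levels of the 57 genes was not tested.

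**Figure D2:**
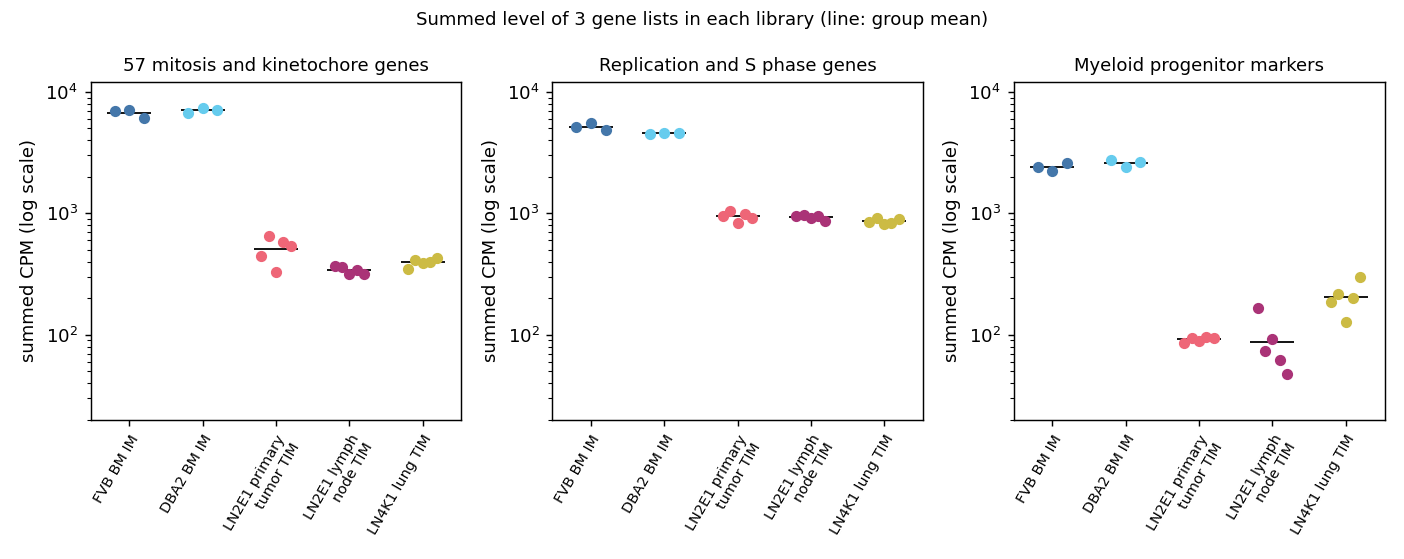
Summed CPM (y axis, log scale) in each of 21 libraries by group (x axis) for the 57 mitosis and kinetochore genes, 45 replication and S phase genes and 11 myeloid progenitor markers, with a line at each group mean. All 3 lists are lower in each of the 15 TIM libraries than in each of the 6 BM IM libraries.

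Each comparison was tested with edgeR's quasi-likelihood test and Benjamini-Hochberg adjustment over all genes tested. Differentially expressed genes (DEGs) were those with adjusted p below 0.0001 whose log2 fold change exceeded 1 in either direction, and counts at a looser limit of 0.05 are given beside them. These p-values measure only the spread between these samples, which the study's methods call technical replicates. In primary tumor TIMs against FVB BM IMs, 57 of 57 members lay below the FVB libraries without overlap, against 27.4% of all genes tested. 57 members were lower at an adjusted p under 0.05, against 28.6% of all genes, and 49 were DEGs that fell, against 5.18%. The median log2 fold change was −4.01, against 0.08 over all genes, with a range from −5.51 (Nuf2) to −1.99 (Anln). The 8 members outside the DEG thresholds were Bub1b, Cenpf, Kif11, Kif2c, Kif4, Anln, Ect2 and Hmmr. Without FVB replicate 1, 2 or 3, or primary tumor replicate 5, the DEG count was 28, 27, 29 or 32.

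In lymph node TIMs against FVB BM IMs, 57 of 57 members lay below without overlap, against 23.2% of all genes tested. 56 members fell at an adjusted p under 0.05, against 17.2%, and 30 were DEGs that fell, against 1.70%. The median log2 fold change was −5.69, against −0.04 over all genes. Setting the 2 members at or under 3 counts at their bounds could not move it, because both bounds lie below it. With at least 10 counts required in every library, 29 members were tested, with a median of −4.54 against −0.02 over all genes. The other members had a lymph node library under 10 counts. The exception at an adjusted p under 0.05 was Cdc25c, the phosphatase that activates Cdk1, whose log2 fold change was −4.78 ± 1.78 (SE). The DEG count was 19 without FVB replicate 1 or 2, 20 without lymph node replicate 3, and 43 without lymph node replicate 1. In that library 18 members had no count, against 2 to 10 in the other 4 lymph node libraries.

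In LN4K1 lung TIMs against DBA2 BM IMs, 57 of 57 members lay below without overlap, against 15.3% of all genes tested. 57 members fell at an adjusted p under 0.05, against 11.0%, and 46 were DEGs that fell, against 1.76%. The median log2 fold change was −5.22, against 0.03 over all genes, from −6.56 (Ttk) to −1.86 (Cks2). Without LN4K1 lung replicate 3, which had 4 members at 0 counts, the DEG count was 57. The comparisons of primary tumor and lymph node TIMs share the FVB libraries, so their values are given side by side and not as independent results. For the 19 members described singly, an exact two-sided permutation test on the group means of log2 CPM returned 0.0357 in each of these 3 comparisons, the smallest p that 5 against 3 libraries allow by this test. That value follows from the lack of overlap given above and adds no support.

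**Figure D3:**
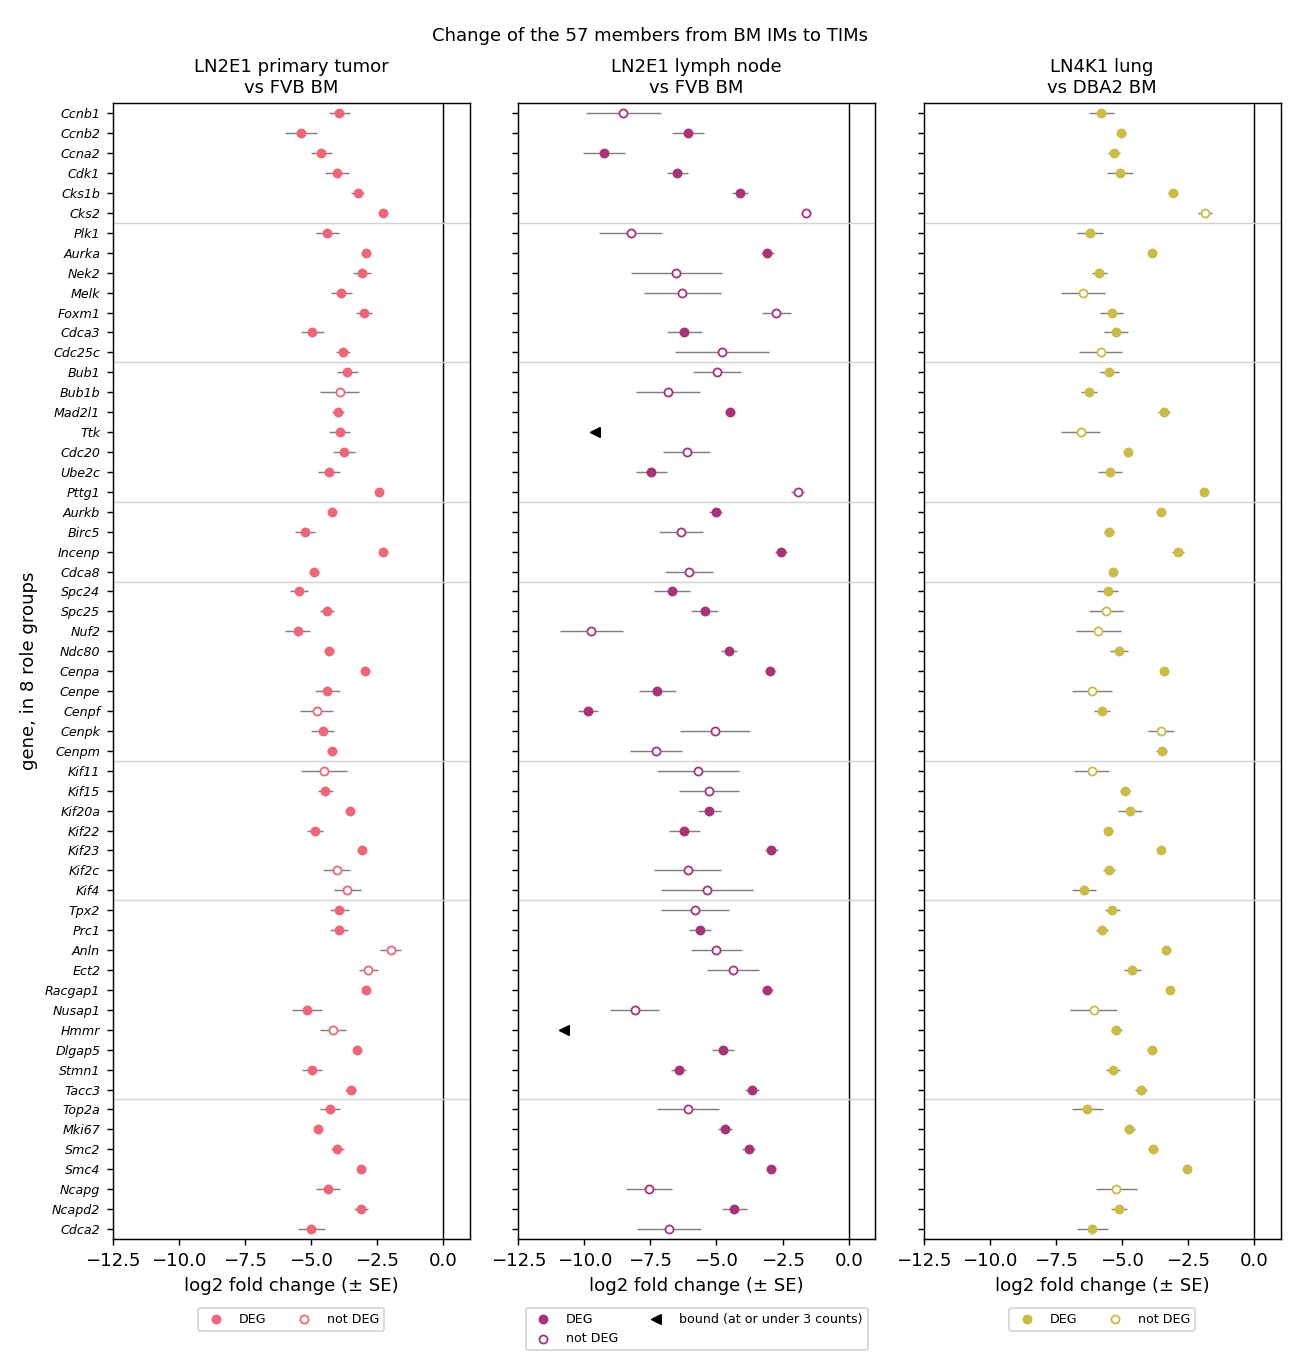
Log2 fold change (x axis, bars ± SE) of the 57 members (y axis, in 8 role groups) for primary tumor TIMs and lymph node TIMs against FVB BM IMs and LN4K1 lung TIMs against DBA2 BM IMs, with filled points for DEGs and triangles for upper bounds of Ttk and Hmmr. All points lie left of 0, with medians of −4.01, −5.69 and −5.22, and Cks2, Pttg1, Incenp and Smc4 stay nearest to 0 in LN4K1 lungs.

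Of the 6 cyclin, Cdk1 and Cks genes, 6, 4 and 5 were DEGs that fell in primary tumor, lymph node and LN4K1 lung TIMs. Of all genes tested, 5.18%, 1.70% and 1.76% were DEGs that fell, and these shares also stand beside the counts of the other role groups below. Ccnb2, a B-type cyclin, had 274, 292 and 205 CPM in FVB and 240, 241 and 229 CPM in DBA2 BM IMs. It had 4.70, 9.50, 0.783, 8.79 and 7.36 CPM in primary tumors, 6.88, 5.45, 4.19, 1.66 and 0.805 in lymph nodes, and 6.36, 7.08, 6.46, 8.93 and 9.17 in LN4K1 lungs. Every BM library lay far above every TIM library. Its log2 fold changes were −5.38 ± 0.61 (SE; adjusted p = 7.16e-05), −6.07 ± 0.61 (4.39e-05) and −5.02 ± 0.16 (2.60e-07). Cdk1, the catalytic kinase of mitotic entry, had 145, 141 and 100 CPM in FVB and 104, 112 and 108 in DBA2 BM IMs. In primary tumors it had 5.45, 13.7, 2.44, 10.7 and 8.01 CPM, in lymph nodes 2.79, 0.885, 1.42, 1.11 and 0.947, and in LN4K1 lungs 2.77, 3.09, 0.718, 4.76 and 5.37. Primary tumor replicate 3 was the lowest of its group for both genes, and no TIM library reached a BM library. The Cdk1 falls were −4.01 ± 0.45 (adjusted p = 6.91e-05), −6.48 ± 0.40 (1.94e-06) and −5.07 ± 0.50 (8.38e-05) on the log2 scale.

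Cks2, a small subunit that docks Cdk1 on its substrates, had the smallest fall of the members in lymph nodes and LN4K1 lungs. It had 74.6, 68.4 and 53.0 CPM in FVB and 53.7, 56.7 and 58.1 in DBA2 BM IMs. In TIMs it had 13.5, 16.6, 11.3, 11.7 and 14.8 CPM in primary tumors, 18.4, 27.7, 22.4, 17.7 and 19.8 in lymph nodes, and 12.4, 11.4, 28.6, 12.2 and 16.6 in LN4K1 lungs. LN4K1 lung replicate 3 was the highest of its group, and all 15 TIM libraries remained below all 6 BM libraries. The log2 fold changes were −2.28 ± 0.15 (SE; adjusted p = 2.03e-06), −1.61 ± 0.19 (1.21e-04) and −1.86 ± 0.28 (0.00125), so that it was a DEG in primary tumors and passed an adjusted p of 0.05 in the other comparisons. Per kilobase of exon, Ccnb2 was the highest member in both BM groups (168 and 155 CPM per kb). Cks2 was the highest in the 3 TIM groups (19.6, 30.6 and 23.5 CPM per kb). The length is that of all GENCODE vM21 exons of a gene merged, which may differ from the exons the authors counted, so the ranking depends on it.

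Among 7 mitotic entry kinases and regulators, 7, 2 and 5 were DEGs that fell in primary tumor, lymph node and LN4K1 lung TIMs. Aurka, the centrosomal Aurora kinase, had 115, 119 and 102 CPM in FVB and 93.6, 106 and 121 in DBA2 BM IMs. It kept 11.1, 15.8, 15.3, 17.7 and 14.3 CPM in primary tumors and 7.69, 16.6, 11.2, 14.9 and 15.5 in lymph nodes, and 7.11, 8.33, 8.10, 8.82 and 6.05 in LN4K1 lungs. The LN4K1 libraries lay below each primary tumor library. Aurka had log2 fold changes of −2.93 ± 0.14 (adjusted p = 3.84e-07), −3.07 ± 0.23 (7.63e-06) and −3.86 ± 0.16 (8.49e-07). Foxm1, the forkhead factor that activates many late cell cycle genes, was uneven in marrow. FVB BM IMs had 24.9, 25.8 and 50 CPM and DBA2 BM IMs 49.7, 72.2 and 78.2. TIMs had 3.28, 4.86, 2.82, 6.28 and 4.20 CPM in primary tumors, 8.18, 7.39, 6.26, 1.75 and 1.60 in lymph nodes, and 2.06, 2.17, 0.488, 2.17 and 1.33 in LN4K1 lungs. TIM libraries did not overlap with BM libraries, and FVB replicate 3 was the highest FVB library. Its log2 fold changes were −2.99 ± 0.31 (adjusted p = 3.41e-05), −2.73 ± 0.56 (0.00390) and −5.39 ± 0.43 (2.47e-05).

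Melk, a kinase of dividing cells, had 36.8, 36.8 and 34.0 CPM in FVB and 44.3, 48.5 and 52.5 in DBA2 BM IMs. Primary tumor TIMs had 1.22, 3.78, 1.20, 2.36 and 4.04 CPM, lymph node TIMs 0, 0.172, 2.04, 0.0371 and 0, and LN4K1 lung TIMs 1.17, 0.951, 0, 0.451 and 0.232. Lymph node replicate 3 stood far above the other 4, and 1 LN4K1 library had no count. The log2 fold changes were −3.85 ± 0.40 (SE; adjusted p = 3.56e-05), −6.29 ± 1.47 (0.00773) and −6.47 ± 0.82 (4.09e-04).

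Of 7 spindle checkpoint and anaphase-promoting complex genes, 6, 3 and 6 were DEGs that fell in primary tumor, lymph node and LN4K1 lung TIMs. Ttk, the Mps1 kinase that starts checkpoint signaling at unattached kinetochores, had 33.3, 28.4 and 24.1 CPM in FVB and 29.6, 31.9 and 31.6 in DBA2 BM IMs. Primary tumor TIMs had 1.53, 3.35, 0.841, 2.71 and 1.11 CPM and LN4K1 lung TIMs 0.301, 0.659, 0, 0.533 and 0.177. In lymph node TIMs only replicate 4 had counts, 3 reads or 0.0371 CPM. Every lymph node library was thus at or under 3 counts, and Ttk was at least 776-fold lower than in FVB BM IMs, with the floor of 3 counts taken per library. The log2 fold changes in primary tumors and LN4K1 lungs were −3.92 ± 0.41 (adjusted p = 3.71e-05) and −6.56 ± 0.74 (2.04e-04). Pttg1, securin, the protein that holds separase inactive until anaphase, was among the members with the highest level in TIMs. It had 205, 182 and 131 CPM in FVB and 170, 167 and 156 in DBA2 BM IMs. TIMs had 33.8, 28.6, 33.8, 32.2 and 35.8 CPM in primary tumors, 65.3, 44.8, 48.0, 28.4 and 40.3 in lymph nodes, and 40.1, 41.5, 62.9, 37.3 and 50.8 in LN4K1 lungs. The highest values in the lymph node and LN4K1 groups were in the 2 libraries that stand apart. Its log2 fold changes were −2.41 ± 0.13 (adjusted p = 7.33e-07), −1.92 ± 0.25 (2.18e-04) and −1.88 ± 0.17 (4.38e-05).

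The 4 chromosomal passenger genes, whose complex places Aurora B at centromeres and the midzone, gave 4, 2 and 4 DEGs that fell in primary tumor, lymph node and LN4K1 lung TIMs. Birc5, survivin, had 278, 262 and 207 CPM in FVB and 255, 265 and 253 in DBA2 BM IMs. Primary tumors had 4.92, 9.87, 2.71, 7.11 and 9.06 CPM, lymph nodes 9.96, 0.687, 2.18, 1.44 and 0.995, and LN4K1 lungs 4.10, 5.92, 5.82, 5.98 and 7.86. Lymph node replicate 1 was far above its group and still below each BM library. The log2 fold changes were −5.22 ± 0.37 (adjusted p = 4.37e-06), −6.34 ± 0.83 (2.54e-04) and −5.50 ± 0.19 (3.80e-07). Incenp, the scaffold of the same complex, had 108, 126 and 132 CPM in FVB and 155, 179 and 174 in DBA2 BM IMs. It had 30.7, 28.9, 20.2, 26.6 and 22.7 CPM in primary tumors, 19.4, 27.1, 19.0, 25.0 and 12.4 in lymph nodes, and 31.4, 30.6, 14.7, 18.6 and 24.8 in LN4K1 lungs. Subunits of 1 complex thus differed: in primary tumors Birc5 had a log2 fold change of −5.22 and Incenp one of −2.26 ± 0.14 (adjusted p = 1.53e-06). The Incenp changes in lymph nodes and LN4K1 lungs were −2.56 ± 0.23 (2.23e-05) and −2.88 ± 0.24 (3.41e-05).

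Among 9 kinetochore and centromere genes, 8, 6 and 5 were DEGs that fell in primary tumor, lymph node and LN4K1 lung TIMs. Spc24 and Nuf2 are subunits of the Ndc80 complex, which grips spindle microtubules. Spc24 had 122, 116 and 95.1 CPM in FVB and 111, 103 and 107 in DBA2 BM IMs, and 2.99, 3.62, 0.912, 2.61 and 2.65 in primary tumors. Lymph nodes had 2.56, 0.951, 0.355, 0.223 and 1.27 CPM and LN4K1 lungs 1.83, 2.18, 1.10, 2.29 and 4.74. No TIM library reached 5 CPM, and the log2 fold changes were −5.45 ± 0.35 (adjusted p = 1.86e-06), −6.68 ± 0.67 (4.64e-05) and −5.53 ± 0.40 (1.25e-05). Nuf2 had 87.5, 82.5 and 66.7 CPM in FVB and 56.6, 68.5 and 67.6 in DBA2 BM IMs. Primary tumors had 1.51, 3.39, 0.456, 1.71 and 1.68 CPM, lymph nodes 0, 0.475, 0, 0 and 0, and LN4K1 lungs 0.543, 1.43, 0, 2.30 and 1.32. Only 1 lymph node library held Nuf2 reads. Its log2 fold changes were −5.51 ± 0.48 (adjusted p = 1.39e-05), −9.73 ± 1.19 (1.60e-04) and −5.89 ± 0.84 (8.59e-04).

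Cenpa, the histone H3 variant that marks centromeres, differed from these subunits in level. It had 266, 283 and 220 CPM in FVB and 236, 231 and 222 in DBA2 BM IMs. Primary tumors had 29.4, 35.3, 36.2, 32.2 and 33.5 CPM, lymph nodes 42.5, 30.0, 22.3, 28.6 and 38.8, and LN4K1 lungs 21, 21.2, 25.9, 18.8 and 26.6. Each TIM library held at least 18.8 CPM and lay below each BM library. Its log2 fold changes were −2.96 ± 0.11 (SE; adjusted p = 9.64e-08), −2.97 ± 0.20 (3.82e-06) and −3.40 ± 0.13 (6.53e-07).

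Of 7 mitotic kinesins, 4, 3 and 6 were DEGs that fell in primary tumor, lymph node and LN4K1 lung TIMs. Kif23 and Racgap1 form centralspindlin, which organizes the midzone before cytokinesis. Kif23 had 154, 157 and 150 CPM in FVB and 140, 135 and 124 in DBA2 BM IMs. It had 19.1, 19.7, 13.2, 22.0 and 19.5 CPM in primary tumors, 10.4, 24.8, 18.6, 28.0 and 19.2 in lymph nodes, and 10.6, 12.1, 14.8, 10.0 and 12.6 in LN4K1 lungs. TIM and BM libraries did not overlap, with log2 fold changes of −3.06 ± 0.14 (adjusted p = 3.13e-07), −2.92 ± 0.26 (2.28e-05) and −3.53 ± 0.14 (6.72e-07). Racgap1 had 309, 336 and 342 CPM in FVB and 337, 337 and 322 in DBA2 BM IMs. Primary tumors had 45.3, 44.7, 35.8, 41.0 and 52.3 CPM, lymph nodes 24.5, 34.0, 37.3, 48.9 and 50.5, and LN4K1 lungs 41.8, 45.6, 31.4, 36.9 and 34.6. Both centralspindlin genes had log2 fold changes near −3, and those of Racgap1 were −2.93 ± 0.12 (adjusted p = 1.59e-07), −3.07 ± 0.22 (4.36e-06) and −3.19 ± 0.14 (9.75e-07).

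Racgap1 belongs to 10 genes of spindle assembly, midzone and cytokinesis, of which 7, 6 and 9 were DEGs that fell in primary tumor, lymph node and LN4K1 lung TIMs. Hmmr, a spindle protein and hyaluronan receptor, had 71.4, 64.3 and 57 CPM in FVB and 74.3, 102 and 77.5 in DBA2 BM IMs. Primary tumors had 2.92, 5.15, 0.666, 4.49 and 4.91 CPM and LN4K1 lungs 1.60, 2.86, 2.94, 2.26 and 2.24. In lymph nodes it had 0, 0.0132, 0, 0 and 0.0237 CPM, from 0, 1, 0, 0 and 2 reads. It was at least 1744-fold lower there than in FVB BM IMs, with the floor of 3 counts per library. The log2 fold changes in primary tumors and LN4K1 lungs were −4.16 ± 0.50 (adjusted p = 1.04e-04) and −5.21 ± 0.22 (8.83e-07). Anln, anillin, which links actin and myosin at the cleavage furrow, had 40.3, 49.1 and 75.1 CPM in FVB and 64.9, 72.4 and 84.5 in DBA2 BM IMs. Primary tumors had 11.5, 21.4, 4.59, 18.6 and 14.0 CPM, lymph nodes 0, 2.72, 1.08, 3.49 and 1.30, and LN4K1 lungs 8.17, 8.77, 5.66, 8.58 and 7.33. Every lymph node library lay below every primary tumor library. The log2 fold changes were −1.99 ± 0.41 (adjusted p = 0.00265), −5.00 ± 0.97 (0.00278) and −3.32 ± 0.18 (2.48e-06).

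The 7 chromosome structure genes gave 7, 4 and 6 DEGs that fell in primary tumor, lymph node and LN4K1 lung TIMs. Top2a, the topoisomerase that untangles sister chromatids, had 261, 272 and 255 CPM in FVB and 289, 346 and 350 in DBA2 BM IMs. It had 10.1, 21.7, 4.78, 16.7 and 15.2 CPM in primary tumors, 13.0, 0.0396, 4.25, 1.5 and 0.462 in lymph nodes, and 2.73, 5.62, 0.718, 7.02 and 5.35 in LN4K1 lungs. The lymph node libraries spread over more than 2 orders of magnitude. Top2a had log2 fold changes of −4.28 ± 0.39 (adjusted p = 2.05e-05), −6.07 ± 1.17 (0.00274) and −6.31 ± 0.59 (6.29e-05). Mki67, the chromosome surface protein Ki-67 used as a marker of cycling cells, had 208, 190 and 185 CPM in FVB and 237, 254 and 245 in DBA2 BM IMs. Primary tumors had 6.94, 7.14, 9.23, 5.90 and 7.26 CPM, lymph nodes 7.88, 4.65, 7.33, 11.9 and 5.73, and LN4K1 lungs 6.50, 7.38, 11.6, 10.6 and 12.8. Here primary tumor replicate 3 was the highest of its group. The 3 log2 fold changes were close, at −4.75 ± 0.14 (adjusted p = 6.27e-08), −4.69 ± 0.27 (1.57e-06) and −4.72 ± 0.22 (1.35e-06).

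**Figure D4:**
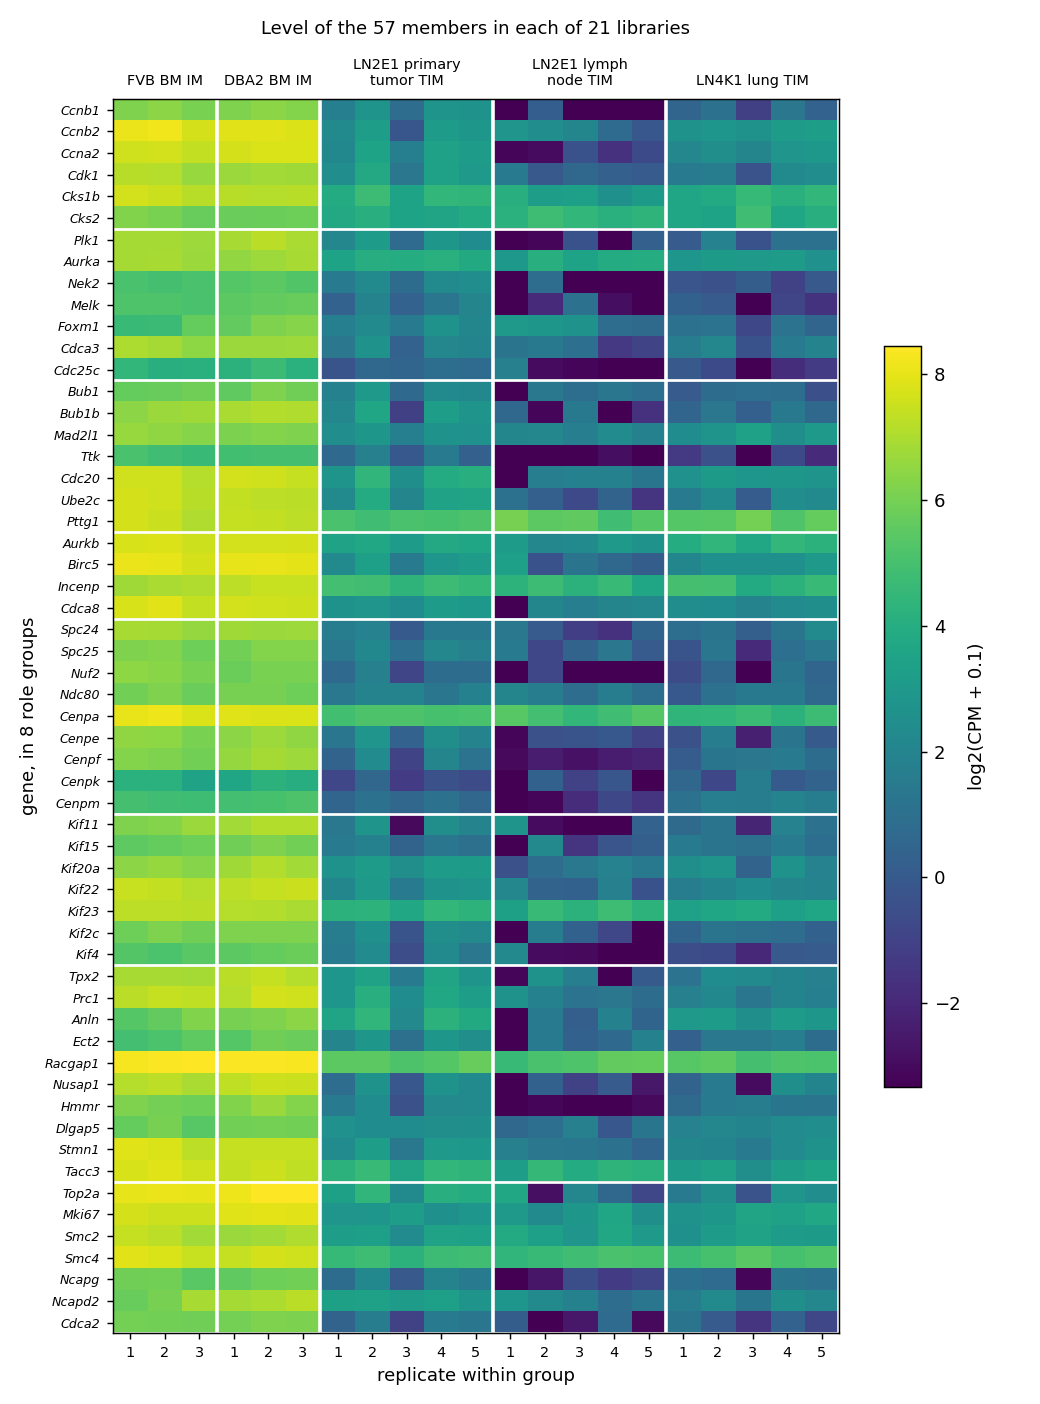
Level of the 57 members (rows, in 8 role groups) in 21 libraries (columns, by group and replicate), as log2(CPM + 0.1), dark for low and yellow for high. BM IM columns are high throughout, the darkest cells are mostly in lymph node TIMs with some in LN4K1 lung replicate 3, and Pttg1, Cenpa, Racgap1 and Smc4 stay lighter across the 15 TIM columns.

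The fall was uneven across members, while Racgap1 ranked 1 by CPM in both marrow groups and in primary tumors and 2 in the other TIM groups. With a limit chosen after the values were seen, 7 members held above 10 CPM in each of the 15 TIM libraries: Cks2, Pttg1, Incenp, Cenpa, Kif23, Racgap1 and Smc4, a condensin ATPase. Being chosen for their level in TIMs, they are described without a test. They made up 19.5% and 18.0% of the summed CPM of the list in FVB and DBA2 BM IMs, 38% in primary tumor TIMs, 60.8% in lymph node TIMs and 49% in LN4K1 lung TIMs. Reads were few at the other end. In BM IM libraries the lowest member still had 1161 to 1885 counts, while the lymph node libraries had 18, 2, 6, 10 and 9 members at 0 counts. Primary tumor libraries had none at 0. Within primary tumor TIMs, replicate 3 was lowest for 48 of 57 members and replicate 2 highest for 38.

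Median falls are given for members with and without TTTGAA in a promoter window. For the 31 members with it, the median log2 fold change was −4.03 in primary tumors, −5.69 in lymph nodes and −5.21 in LN4K1 lungs. For the 14 without it, the medians were −3.95, −6.31 and −5.49, and the 14 included both Pttg1 and Cks2 and also Nuf2, Birc5 and Melk. The 12 members with no window had medians of −3.85, −5.15 and −5.32. No test was run between these sets.

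The lymph node and primary tumor TIMs of the LN2E1 model were compared directly. By the DEG thresholds edgeR called 0 of 57 members, against 0.0297% of all genes tested. DESeq2 called 6 by these thresholds, and 374 of 13488 genes. By edgeR 25 members had an unadjusted p under 0.05, and the share of all genes at that limit was not counted. At an adjusted p under 0.05, 12 members were lower and 1 was higher in lymph nodes, against 5.55% and 6.15% of all genes. Without overlap, 15 members were lower, against 8.87%, and 1 was higher, against 5.52%. The median log2 fold change was −1.38, against −0.03 over all genes. With at least 10 counts required in every library, 29 members were tested, 22 lower and 7 higher, with a median of −0.75. The 12 lower members were Ccna2, Cdk1, Ttk, Ube2c, Aurkb, Cenpe, Cenpf, Kif20a, Prc1, Hmmr, Dlgap5 and Stmn1. The count of 13 became 24 without lymph node replicate 1, and 8, 8, 6 and 7 without primary tumor replicates 1, 2, 4 and 5.

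Hmmr was at least 98.5-fold lower in lymph node than in primary tumor TIMs and Ttk at least 51.9-fold lower, with every lymph node library at or under 3 counts. These bounds cover counting error only. Of all symbols, 40.1% to 48.7% had 0 counts in the lymph node libraries, against 28.8% to 35.8% in primary tumors. The part of this difference in the member values was not tested. Cenpf, an outer kinetochore protein, had 1.23, 4.97, 0.432, 4.02 and 2.15 CPM in primary tumors and 0.0242, 0.0924, 0.0474, 0.0866 and 0.118 in lymph nodes. Its groups did not overlap, and its log2 fold change was −5.08 ± 0.84 (SE; adjusted p = 0.00373). Ccna2, cyclin A2, had 4.39, 11.2, 3.28, 10.6 and 8.88 CPM in primary tumors and 0.0121, 0.0264, 0.687, 0.223 and 0.533 in lymph nodes, a log2 fold change of −4.68 ± 0.95 (adjusted p = 0.00921). Cdk1 was lower by −2.48 ± 0.51 (adjusted p = 0.00950) on the log2 scale, with lymph node replicate 1 just above the lowest primary tumor library. Cenpf and Ccna2 were chosen after their values were seen. Cks2 was the member that rose, with a log2 fold change of 0.65 ± 0.17 (adjusted p = 0.0280), but the call was lost with total counts in place of TMM, with the replicate number as a block, without lymph node replicate 2, and without primary tumor replicate 1, 3, 4 or 5. Its lowest lymph node library, at 17.7 CPM, was above its highest primary tumor library, at 16.6. The members Mki67, Cenpa and Racgap1 had log2 fold changes of 0.05 ± 0.27, −0.03 ± 0.17 and −0.15 ± 0.19, none past the test. An exact two-sided permutation test gave p under 0.05 for 8 of the 19 singly described members, where 0.00794 is the smallest p that 5 against 5 libraries allow. Of these 19, Cks2, Pttg1, Ttk and Hmmr were chosen for their fold change in this comparison, so the count adds no support. The exact test was not run over all genes. The fibroblast marker sums given above did not overlap between these groups, and their part was not tested.

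**Figure D5:**
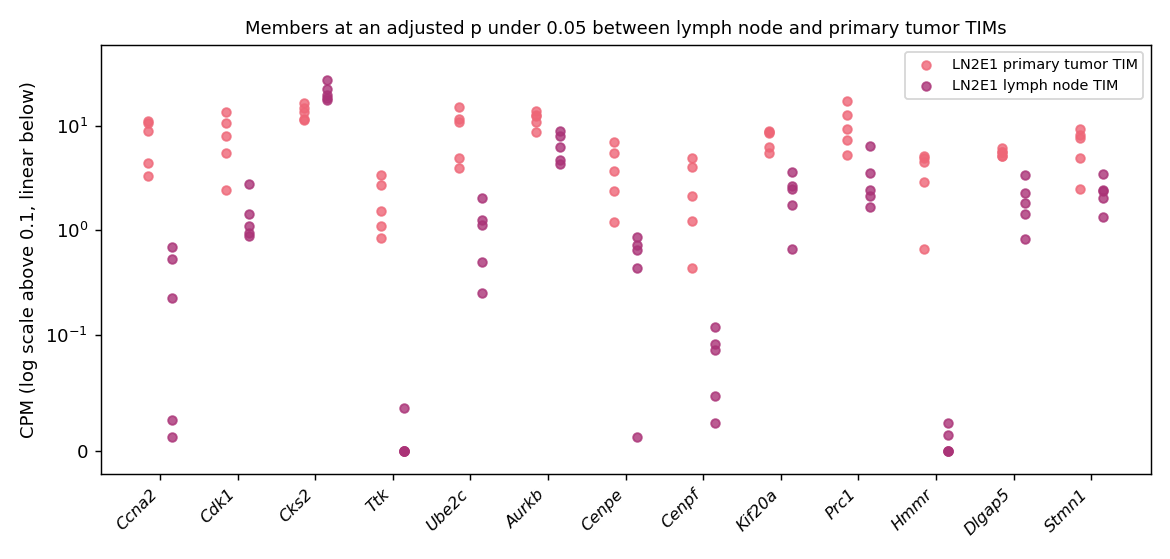
CPM (y axis, log scale above 0.1 and linear below) in each of 5 primary tumor and 5 lymph node TIM libraries for the 13 members (x axis) at an adjusted p under 0.05 between them. Ttk and Hmmr lie at or near 0 in all 5 lymph node libraries, and Cks2 is the member that is higher there.

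The BM IMs of the FVB and DBA2 strains were also compared. Between DBA2 and FVB BM IMs edgeR called 0 of 57 members by the DEG thresholds, against 0.403% of all genes tested. DESeq2 called 0 by these thresholds, and 788 of 12905 genes. By edgeR 21 members had an unadjusted p under 0.05, and the share of all genes at that limit was not counted. At an adjusted p under 0.05, 11 members were higher in DBA2, against 11.5% of all genes, and none was lower, against 9.57%. These were Melk, Foxm1, Bub1b, Incenp, Cenpf, Kif11, Kif20a, Tpx2, Nusap1, Top2a and Mki67. The median log2 fold change was 0.14, and the highest was that of Foxm1, 1.01 ± 0.30 (SE; adjusted p = 0.0448). The call rests on single libraries: without FVB replicate 3, 17 members were higher and 11 lower, and the count of 11 became 2 and 1 without FVB replicates 1 and 2, and 7, 1 and 1 without DBA2 replicates 1, 2 and 3. For the 19 members described singly, 3 against 3 libraries cannot go below p = 0.1 in the exact two-sided permutation test.

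The change in LN2E1 primary tumors was compared with that in LN4K1 lungs as an interaction, the first minus the second, so that a positive value is a smaller fall in primary tumors. At an adjusted p under 0.05, 15 members were positive, against 13.2% of all genes, and none was negative, against 13.3%. The median difference was 0.94 on the log2 scale, against 0.08 over all genes. By role, medians were 2.05 for mitotic entry kinases and regulators, 1.18 for kinesins, 1.16 for the checkpoint group, 1.0 for spindle, midzone and cytokinesis genes, 0.86 for chromosome structure, 0.46 for kinetochore genes, 0.38 for the passenger complex and 0.28 for the cyclin group. Nek2, a centrosome kinase, had a difference of 2.79 ± 0.45 (SE; adjusted p = 8.02e-04), from 33.1, 31.1 and 33.0 CPM in FVB BM IMs to 2.70, 4.75, 1.68, 4.91 and 5.28 in primary tumors. In the other model it went from 40.2, 44.3 and 38.1 CPM in DBA2 BM IMs to 0.763, 0.648, 1.02, 0.400 and 0.884 in LN4K1 lungs, below each primary tumor library. Kif4, a chromosome-bound kinesin, had a difference of 2.80 ± 0.73 (adjusted p = 0.0111). Both were chosen after their values were seen. For Mki67 the difference was −0.01 ± 0.26. The count of 15 became 8, 6 and 8 without DBA2 replicates 1, 2 and 3, 6 and 8 without FVB replicates 1 and 2, 9 and 23 without primary tumor replicates 2 and 3, and 10 without primary tumor replicate 4 or 5 or LN4K1 lung replicate 5. Strain, cell line, route and tissue cannot be told apart here.

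Other cell cycle genes were counted in lists beside the 57. Of 49 other mitosis genes, such as further kinetochore subunits and condensins, 29, 9 and 23 were DEGs that fell in primary tumor, lymph node and LN4K1 lung TIMs, and 49, 49 and 48 fell at an adjusted p under 0.05, with none higher. Their median log2 fold changes were −3.58, −4.86 and −4.66. Pmf1, a subunit of the kinetochore Mis12 complex and 1 of their 2 most abundant genes, had log2 fold changes of −2.63 ± 0.09, −2.60 ± 0.13 and −1.71 ± 0.13. Of 45 replication and S phase genes, 42, 25 and 23 were DEGs that fell, and 45, 44 and 45 fell at an adjusted p under 0.05. Their medians, −2.71, −3.22 and −2.83, were nearer to 0 than those of the 57 members. Beside both lists, 5.18%, 1.70% and 1.76% of all genes tested were DEGs that fell. At an adjusted p under 0.05, 28.6%, 17.2% and 11.0% of all genes fell. Slbp, which binds histone mRNA, had 268 to 348 CPM in FVB BM IMs and 83.7 to 99.5 in primary tumor TIMs. TTTGAA was in 51.2% of 41 windows of the other mitosis genes and in 11.6% of 43 windows of the replication genes, beside 67.3% for the members.

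Of the 18 G1 and G1/S regulators, 18, 17 and 17 were tested in primary tumor, lymph node and LN4K1 lung TIMs. At an adjusted p under 0.05, 13, 12 and 12 fell, against 28.6%, 17.2% and 11.0% of all genes, and 4, 2 and 2 rose, against 33.3%, 20.2% and 13.9%. Ccnd3, the most abundant D-type cyclin of the list, had 664 to 756 CPM in FVB BM IMs and 369 to 449 in primary tumor TIMs, with log2 fold changes of −0.77 ± 0.09 (adjusted p = 7.11e-05), −0.79 ± 0.17 (0.00592) and −0.69 ± 0.22 (0.0454). The other D-type cyclins, named after their values were seen, rose in each TIM group: Ccnd1 by log2 fold changes of 5.05 ± 0.61, 5.35 ± 0.80 and 3.43 ± 0.50, and Ccnd2 by 2.72 ± 0.20, 2.98 ± 0.37 and 2.40 ± 0.31. Of 11 Cdk inhibitors and pocket proteins, which restrain the cycle, 11, 10 and 10 were tested and 4 rose in each TIM group at an adjusted p under 0.05, and 3, 2 and 3 fell. In primary tumors these shares were near those of all genes, 33.3% higher and 28.6% lower. For lymph nodes and LN4K1 lungs the shares of all genes were 20.2% and 13.9% higher, and 17.2% and 11.0% lower. Cdkn1a, the inhibitor p21, had 231 to 278 CPM in FVB and 316 to 362 in DBA2 BM IMs, and 795 to 1141, 577 to 949 and 633 to 906 CPM in the 3 TIM groups. TIM libraries did not overlap with BM libraries, and its log2 fold changes were 1.80 ± 0.14 (adjusted p = 5.91e-06), 1.67 ± 0.16 (3.99e-05) and 1.13 ± 0.14 (3.50e-04). Cdkn2d, the inhibitor p19, rose in LN4K1 lungs, by 0.99 ± 0.12 (3.45e-04), and had 0.17 ± 0.09 (0.147) and −0.31 ± 0.12 (0.0682) in primary tumors and lymph nodes.

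All 57 members have an entry in the GENCODE vM21 annotation of GRCm38. Ccnb2 (ENSMUSG00000032218) spans chr9:70407692-70421547, Cdk1 (ENSMUSG00000019942) chr10:69335146-69352938, and Top2a (ENSMUSG00000020914) chr11:98992943-99024189, all on the reverse strand. Hmmr (ENSMUSG00000020330) spans chr11:40701395-40733422 and Pttg1 (ENSMUSG00000020415) chr11:43420250-43426251, also on the reverse strand, and Cks2 (ENSMUSG00000062248) spans chr13:51645232-51650660 on the forward strand. Exons of 38 members overlap no other gene, those of 15 overlap a gene on the opposite strand, and those of 4 overlap a gene on the same strand. The libraries carry no strand, and the counting settings are not given in the sources used here. Whether reads in overlapping exons of pairs such as Tacc3 and Tmem129 or Cdc20 and Elovl1 were mixed or left out is therefore not known.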

How the data were processed

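Samples were grouped by GEO's labels into 5 groups (21 libraries), and every library was used. The deposited values are the authors' raw counts per gene symbol. The authors trimmed reads with BBDuk, aligned pairs to mm10 with BBMap and counted with featureCounts (1.5.2 in the submitters' processing notes, with SAMtools 1.8). The counting settings are not given in the sources used here. Libraries were amplified from little RNA without molecular identifiers, so the floor of 3 counts covers counting error only. Every column was mapped to a sample by its name (0 unmapped).

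Counts were tested with edgeR 4.0.16 (limma 3.58.1, R 4.3.3), 1 fit per comparison: TMM factors, edgeR's filter on low counts (10 per library, 15 in total), robust quasi-likelihood test, Benjamini-Hochberg adjustment. The standard error is the absolute log2 fold change divided by the square root of F, which is approximate. DEG thresholds have the study's values, but the study applied them to DESeq2 fold changes after shrinkage and took genes shared by comparisons, whereas here they were applied to unshrunken fold changes in each comparison alone. For CPM, TMM factors were computed once for all 21 libraries, with a prior count of 2 on the log2 scale. No 2 libraries of a group agreed within sampling noise. Alternatives were other size factors, other filters, 1 fit of all groups, DESeq2 1.42.0 in place of edgeR, the replicate number as a block, and leaving out each library. The fitting script was tested on simulated counts. Locations came from GENCODE vM21 (GRCm38) and promoter windows from RefSeq (GRCm38.p6), matched by symbol, and motifs were searched on both strands. Python 3.11.15, pandas 2.3.3, numpy 2.4.6, scipy 1.17.1 and matplotlib 3.10.9 were used.

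The 57 members, the lists and the comparisons were chosen with earlier results of these data known. Described singly were, in each role group, the member with the highest mean CPM; in each TIM comparison and in lymph node against primary tumor TIMs, the 2 highest and 2 lowest log2 fold changes; and Mki67, Cdk1 and Foxm1. The lists are described by counts and medians, with examples from their 2 most abundant genes, of which 1 is not reported here.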

Additional observations from a re-analysis of the deposited data

Results flagged for a closer look

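Among 60 sets of 5 library values of a described member in a TIM group, or of the sum of the 57 members, 5 held a library far from the other 4 by Dixon's test. Its rate of about 1 in 20 by chance holds for normally distributed values and not for counts near 0. With the other 4 libraries at 0, as for Nuf2 and Ttk, a flag was certain. All 5 were in lymph node TIMs: Cdk1 at 2.79 CPM in replicate 1 (next 1.42), Birc5 at 9.96 CPM in replicate 1 (next 2.18), Melk at 2.04 CPM in replicate 3 (next 0.172), Nuf2 at 0.475 CPM in replicate 2 (the others at 0), and Ttk at 0.0371 CPM in replicate 4 (the others at 0). In each case the library that stood apart was the highest, and the Ttk value rests on 3 reads.

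The change in LN2E1 primary tumors minus that in LN4K1 lungs, on the log2 scale, was tested with edgeR. At an adjusted p under 0.05 it differed for 15 of 57 members and for 4022 of 15182 genes tested. All 15 were positive, against 13.2% of all genes, and none was negative, against 13.3%. Among the members described singly, the differences were 0.95 ± 0.22 (SE) for Aurka (adjusted p = 0.00566), 2.64 ± 0.92 for Melk (0.0452), 2.42 ± 0.56 for Foxm1 (0.00615), 2.66 ± 0.86 for Ttk (0.0319), 0.46 ± 0.16 for Cenpa (0.0472) and 2.05 ± 0.72 for Top2a (0.0451). Between the BM IMs of the 2 strains Foxm1 had an adjusted p of 0.0448 by edgeR and an exact permutation p of 0.200, with FVB replicate 3 (50 CPM) above the lowest DBA2 library (49.7 CPM). Strain, cell line, route and tissue cannot be told apart.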

How the results depend on the processing

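In the 3 comparisons of TIMs with BM IMs, 285, 251 and 282 values of the described members were refitted. Each kept its direction and stayed under an adjusted p of 0.05. Ttk and Hmmr were left out of the lymph node values. With at least 10 counts required in every library, Melk, Nuf2, Top2a and Anln were not tested in lymph nodes, nor Melk, Ttk and Nuf2 in LN4K1 lungs. DEG counts moved more. With the replicate number as a replicate block, 0, 0 and 0 members were DEGs in primary tumor, lymph node and LN4K1 lung TIMs by edgeR, as were 0 of all genes, while 57, 52 and 57 had an adjusted p under 0.05 and 57, 57 and 57 an unadjusted p under 0.05. The labels do not say whether same-numbered primary tumor and lymph node libraries share a mouse. Correlations of same-numbered deviations lay between −0.17 and 0.10, over too few libraries to decide it. Only in lymph node against FVB did each library correlate best with its own number, though naive and tumor-bearing mice cannot be pairs. The block gave 5 members in place of 13 at an adjusted p under 0.05 between lymph node and primary tumor TIMs. It kept the interaction count within 1.5 times. DESeq2 gave 56, 41 and 57 member DEGs against BM IMs, beside 3932 of 14569, 2313 of 13273 and 1571 of 13624 genes. Between lymph node and primary tumor TIMs it gave 6 member DEGs, beside 374 of 13488 genes. At an adjusted p under 0.05 it gave 22 members and 2400 genes there, and 23 members and 4922 of 15182 genes in the interaction. A fit of all 5 groups tested 15357 genes and gave 50 member DEGs for lymph nodes against FVB, beside 1947 of all genes. Between lymph node and primary tumor TIMs it gave 4 member DEGs, beside 27 of all genes. At an adjusted p under 0.05 it gave 26 members there, beside 2197 genes. At the same limit it gave 0 between the strains (0 also at an unadjusted p under 0.05), beside 1595 genes. In the interaction it gave 4, beside 3188 genes. With at least 10 counts in every library, 29 members were tested for lymph nodes against FVB and all 29 fell, with a median log2 fold change of −4.54. Leaving out 1 library at a time gave 27 to 56, 19 to 43 and 32 to 57 DEGs against BM IMs, with 57 to 57, 55 to 57 and 57 to 57 members at an adjusted p under 0.05. It gave 0 to 0 DEGs and 6 to 24 members at an adjusted p under 0.05 between lymph node and primary tumor TIMs, 0 to 0 and 1 to 28 between the strains, and 6 to 23 in the interaction. The group means of the summed CPM ranged from 6560 to 7058, 6946 to 7276, 474 to 553, 334 to 346 and 389 to 408. With total counts in place of TMM they were 7533 in FVB, 8187 in DBA2 and 314 in lymph nodes, and the medians of all genes against BM IMs moved to −0.09, −0.33 and −0.19 with those of the members at −4.16, −6.01 and −5.44. Without Racgap1, the member with the highest mean CPM over the 21 libraries, the sums were 301 in lymph nodes and 358 in LN4K1 lungs. The cause of these moves was not tested. Fold changes of members with libraries at 0 counts, up to 18 members in a lymph node library, rest on few reads.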
